A study of Mus musculus with 4 samples.

Results

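The longer box C/D small nucleolar RNAs (snoRNAs) were taken as the gene models whose symbol starts with Snord and whose length in the deposited tables is above 80 nt. Models of Snord64, Snord107, Snord115 and Snord116 were left out. This gave 38 of 50600 gene models, from 81 to 238 nt long with a median of 90 nt, against 42 Snord models of up to 80 nt. The RNAs came from RNA immunoprecipitation (RIP) of testes from C57BL/6 mice at 8 weeks of age. RIP recovers the RNAs that come down with a protein when beads carrying its antibody are washed after incubation with lysate. There were 2 groups of 2 libraries, one made with an antibody to LARP7 from abcam and one with IgG from Millipore, which measures RNAs that stick to beads and antibody without LARP7. No genotype, treatment or transgene is given for either group, and both share strain, age, tissue and library kit. The series calls the 2 libraries of a group biological replicates, but the labels do not say whether each had its own animals, so p-values measure the spread between these libraries only. Each library came from a lysate of whole testis, so fewer cells holding an RNA and less of it per cell cannot be told apart.

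Box C/D snoRNAs carry the short conserved boxes C and D, which hold a core of the proteins fibrillarin, NOP56, NOP58 and SNU13. Most of them pair with ribosomal RNA (rRNA) and direct fibrillarin to methylate the ribose of a nucleotide there. A few direct methylation of the spliceosomal U6 RNA, and some of the longer ones take part in cutting the rRNA precursor. Most mammalian box C/D snoRNAs are cut out of introns of host genes, many of which encode ribosomal proteins. LARP7, of the La-related family, binds the 3′ ends of 7SK and U6 RNA, and it has been linked to methylation of U6 through the snoRNAs that guide it. The U6 guides Snord7, Snord8 and Snord67 are among the members.

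A stretch of 1 member, Snord33, which guides methylation of small-subunit rRNA, is shown because it holds a box C and shares its locus with an annotated microRNA. Sequences are those of RefSeq for GRCm38.p6. Snord33 lies at chr7:45126864-45126945 inside the ribosomal protein gene Rpl13a, whose start site is annotated on the minus strand. The Mir5121 hairpin lies on the minus strand at chr7:45126918-45126991, and its 28 bases within Snord33 are in capitals below. In the mature microRNA, at chr7:45126925-45126945, the capitals mark UGAUGA, the core letters of box C, at positions 7 to 12.
Mir5121 hairpin: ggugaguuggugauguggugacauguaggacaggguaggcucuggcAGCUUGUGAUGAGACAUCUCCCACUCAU
mmu-miR-5121: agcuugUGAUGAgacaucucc
Among 1738 mature microRNAs in the same table, 0.69% hold UGAUGA on the strand given. The Mir5121 model had 0.61 counts in LARP7 replicate 2 and 0 in each of the other libraries, a value of 0 allowing up to 3 counts by counting error alone. The Snord33 model had 196, 631, 262 and 338 counts in LARP7 replicates 1 and 2 and IgG replicates 1 and 2. The groups overlapped for Snord33, which was not called (edgeR adjusted p = 0.133, log2 fold change 1.41, SE 0.64). It was called without IgG replicate 2 (2.30, adjusted p = 0.0316), and its value was 0.47 without LARP7 replicate 2.

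Libraries held 4411271 to 6994514 counts. Replicates differed far beyond counting noise (chi-square over degrees of freedom 124 in the LARP7 pair and 53.4 in the IgG pair), so none was a repeat deposit. All 12 germ cell markers listed were above 0 in every library, and of the markers of other tissues Alb, Gfap and Krt14 were at 0 throughout. The germ cell markers summed to 483 and 316 CPM (counts scaled to a common depth) with the LARP7 antibody and to 1107 and 1204 CPM with IgG, and the part of this difference in the results below was not tested. The somatic cell markers, 8 of 12 of them above 0 in every library, summed to 62.9 and 52.6 CPM against 69.7 and 62.8 CPM. Counts were scaled by TMM, which sets the bulk of genes level between libraries. It gave factors of 0.558 and 0.673 to the LARP7 RIPs, and of 1.85 and 1.44 to IgG. With library totals in place of TMM, the median log2 fold change of all tested genes moved by -1.42, so each direction below is given with both scalings where they differ.

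As a family, the longer box C/D snoRNAs took shares of the counts in the LARP7 and IgG RIPs that overlapped. They held 3.53% and 3.78% of all counts in the LARP7 libraries, and 2.05% and 4.15% in the IgG libraries. The means were 3.65% ± 0.17 and 3.1% ± 1.49 (SD, n = 2 each), with IgG replicate 2 the highest of all. By TPM, which also divides by effective length, the LARP7 shares lay lower without overlap (2.68% and 4.79% against 5.47% and 7.93%). The Snord models of up to 80 nt took 25.9% and 16% with the LARP7 antibody against 7.36% and 9.68% with IgG, with no overlap. The counts of the shorter models per count of the longer ones were 7.33 and 4.23 with the LARP7 antibody and 3.60 and 2.33 with IgG. That ratio needs no scaling between libraries and was higher in both LARP7 libraries, but with 2 libraries a group a two-sided exact permutation test cannot go below p = 0.33, so it was not tested.

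**Figure D1:**
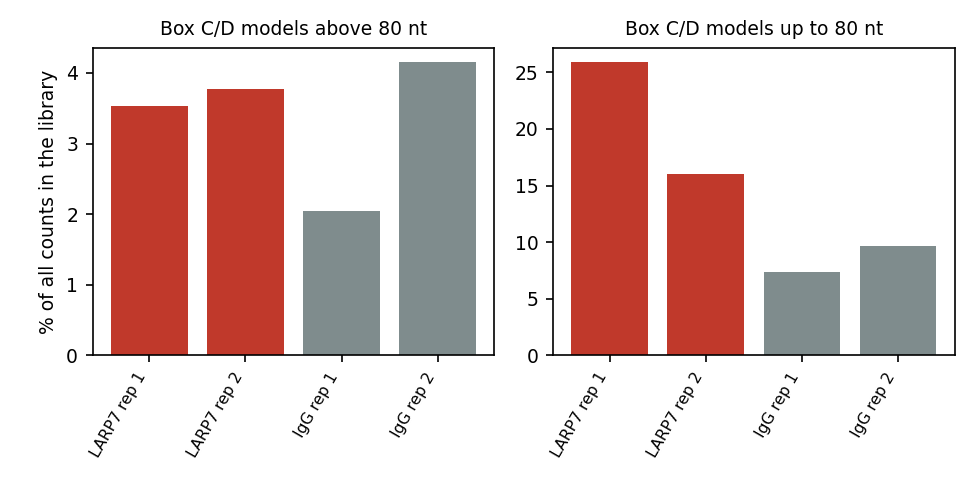
Share of all counts (%, vertical axis, a separate scale in each panel) taken by box C/D snoRNA models above 80 nt (left) and up to 80 nt (right) in each library; bars are single libraries, red for LARP7 and grey for IgG. On the left IgG replicate 2, at 4.15%, stands above both LARP7 libraries; on the right both LARP7 libraries, at 25.9% and 16%, stand above both IgG libraries.

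Of the 38 members, 37 passed the filter on low counts, and 36 had counts in every library. With TMM 12 of the 37 were higher with the LARP7 antibody and 0 were lower (edgeR quasi-likelihood test, adjusted p under 0.05 over 12234 genes). Their share, 32.4%, stands beside 14.5% of all genes called higher and 9.69% called lower. At an unadjusted p under 0.05 none of the members was lower either, but the share of all genes at that threshold was not computed. DESeq2 also called 0 lower (6.26% of all genes) and 15 higher (13.7%). With library totals 4 members were higher (3.95% of all genes) and 3 lower (47.1% of all genes), so the direction of part of the family turned with the scaling. The median log2 fold change of the tested members was 1.41 with TMM, where that of all genes was -0.05, and 0.13 with library totals, where that of all genes was -1.47. Relative to all genes the median thus lay 1.45 and 1.59 higher, and 1.85 and 1.89 higher for the models of up to 80 nt. With TMM the LARP7 values lay above the IgG values without overlap for 27 of the 37 members (32.9% of all genes) and below them for 1 (35.6% of all genes). With library totals these were 12 (9.7% of all genes) and 6 (63.9%). Single libraries moved the count of members called higher: it was 7 without IgG replicate 1 (12.2% of all genes), 21 without IgG replicate 2 (15.2%), 9 without LARP7 replicate 1 (9.7%) and 8 without LARP7 replicate 2 (4.62%). In these fits 0 members were lower, beside 6.28%, 6.32%, 6.29% and 1.38% of all genes. With no filter on low counts 14 members were higher (7.56% of all genes) and 0 lower (5.13%). On TPM, with limma, 0 members were higher (3.95% of all genes) and 4 lower (55.4%).

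**Figure D2:**
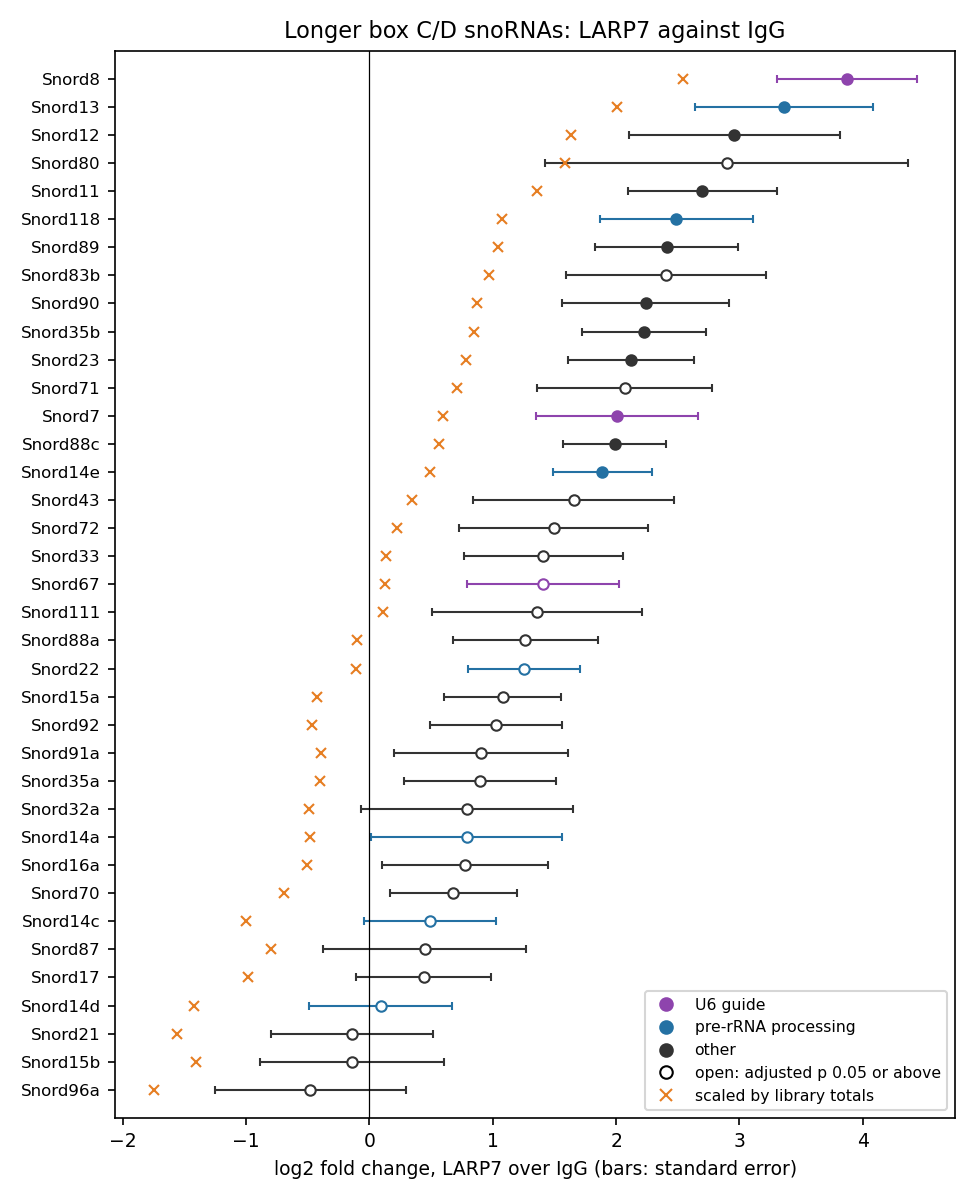
Log2 fold change of LARP7 over IgG (horizontal axis) for each of the 37 tested members with TMM scaling, with the standard error as bars; filled points passed an adjusted p of 0.05 in edgeR, and colours give the role. Orange crosses are the same fold changes with library totals, where 20 members lie above 0 and 17 below; Snord8 stands highest with both, at 3.87 and 2.54.

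The U6 guides were set against the other members. Snord8 had 234 and 439 counts with the LARP7 antibody and 46 and 48 with IgG, which is 60.8 and 101 CPM against 3.59 and 7.59 CPM. Both LARP7 values lay far above both IgG values, and the log2 fold change was 3.87 (SE 0.56, edgeR adjusted p = 0.00377). It was the largest of all members, and it was called with library totals too (2.54, edgeR adjusted p = 2.29e-05). Snord67 had 184 and 400 counts against 156 and 258, or 47.8 and 91.8 CPM against 12.2 and 40.8 CPM. Its groups lay apart by little, and it was not called (log2 fold change 1.41, SE 0.62, edgeR adjusted p = 0.12). Without IgG replicate 2 Snord67 was called (2.56, edgeR adjusted p = 0.0147), and with library totals its value was 0.13. Snord7 was the rarest of the guides, with 15 and 33 counts against 23 and 6, or 3.90 and 7.57 CPM against 1.80 and 0.949 CPM. Its call was narrow (log2 fold change 2.01, SE 0.66, edgeR adjusted p = 0.0462). It was lost with library totals (0.59), without LARP7 replicate 1 (2.40, adjusted p = 0.063), LARP7 replicate 2 (1.47, adjusted p = 0.469) or IgG replicate 2 (1.72, adjusted p = 0.0894).

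Within a library, each guide was also counted against the other 35 members, which needs no scaling. Snord8 made up 9.60 and 17.9 per 10000 counts of the others in the LARP7 libraries and 3.22 and 2.63 in the IgG libraries, a mean of 13.8 ± 5.90 against 2.92 ± 0.42 (SD, n = 2 each). Both LARP7 libraries lay above both IgG libraries, and the ratio of the means was 4.71. Snord7 made up 0.615 and 1.35 against 1.61 and 0.328, and Snord67 made up 7.55 and 16.3 against 10.9 and 14.1. For both of these the groups overlapped. Within the family Snord8 was thus the single U6 guide whose share lay higher in both LARP7 libraries. Members that are not guides had such shares too. Snord13 held 1.02% and 0.785% of the family's counts against 0.247% and 0.272% with IgG, and Snord12 20.6% and 22.5% against 7.09% and 8.72%. The shares of Snord11, Snord23, Snord71, Snord80, Snord89, Snord90 and Snord118 also lay higher in both LARP7 libraries. That of Snord21 lay lower in both (2.48% and 2.89% against 16.3% and 5.89%). So did those of Snord14d, Snord15b, Snord16a, Snord17, Snord70, Snord91a and Snord96a. How many of all genes lie apart by such shares was not computed. The median log2 fold change of the 34 tested members that are not guides was 1.31, below the value of Snord67 by less than the standard error of the latter. Whether the guides as a group differ from the other members was not tested, since 2 libraries a group cannot pass an exact test.

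**Figure D3:**
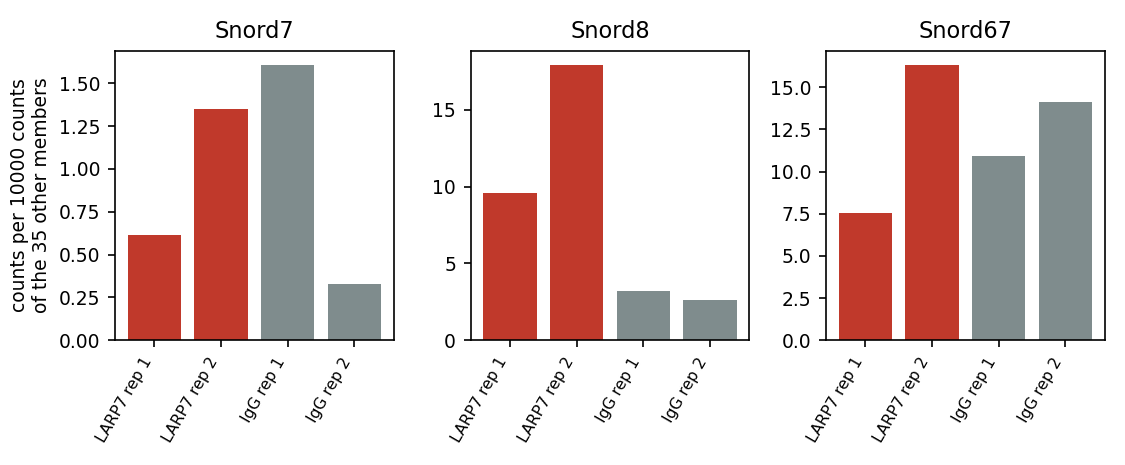
Counts of each U6 guide per 10000 counts of the 35 other members (vertical axis, a separate scale in each panel) in each library; bars are single libraries, red for LARP7 and grey for IgG. For Snord8 both LARP7 bars (9.60 and 17.9) exceed both IgG bars (3.22 and 2.63), while for Snord7 and Snord67 the groups overlap.

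Of the 7 members with a part in making the small and large ribosomal subunits from the rRNA precursor, 3 were called higher and 0 lower with TMM, beside 14.5% and 9.69% of all genes. With library totals 1 was higher and 1 lower, beside 3.95% and 47.1% of all genes. Snord13 (U13), which guides acetylation of small-subunit rRNA, had 2495 and 1928 counts against 354 and 497, or 648 and 442 CPM against 27.7 and 78.6 CPM. The groups lay well apart (log2 fold change 3.36, SE 0.72, edgeR adjusted p = 0.0126), also with library totals (2.01, adjusted p = 0.00352). Snord118 (U8), which is needed to mature large-subunit rRNA, had 1511 and 957 counts against 520 and 434, or 393 and 220 CPM against 40.6 and 68.7 CPM. It was called with TMM (2.49, SE 0.62, edgeR adjusted p = 0.0195), but not with library totals (1.08, adjusted p = 0.106). Leaving out LARP7 replicate 1 (1.99, adjusted p = 0.0535) or IgG replicate 1 (2.16, adjusted p = 0.0594) also ended the call. Snord22 (U22), which acts on the small-subunit rRNA, had 185 and 313 counts against 272 and 184, or 48.1 and 71.8 CPM against 21.2 and 29.1 CPM. It missed the threshold (log2 fold change 1.25, edgeR adjusted p = 0.0657) and passed it without LARP7 replicate 1 (1.5, adjusted p = 0.0477). With library totals the sign turned (-0.11).

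The Snord14 (U14) copies, which both pair with small-subunit rRNA to shape its cutting and guide methylation, had values above 0 with TMM, of which 1 was called. Snord14c, Snord14d and Snord14e all lie in introns of Hspa8, a gene for a heat shock cognate protein, and Snord14a lies in Rps13. Snord14e had 127 and 206 counts against 136 and 70, and was called higher with TMM (log2 fold change 1.89, SE 0.40, edgeR adjusted p = 0.0119). Snord14e was not called with library totals (0.49) or without IgG replicate 1 (1.85, adjusted p = 0.0536). Snord14d had 648 and 462 counts against 2244 and 518, with a log2 fold change of 0.09 with TMM and of -1.42 with library totals (edgeR adjusted p = 0.0342), where it was called lower. Snord14c had 566 and 419 counts against 1392 and 407 (0.49 with TMM, not called). Snord14a had 8 and 40 counts against 20 and 33 (0.79, not called). RSEM's posterior SD was at most 0.0261 of the count for Snord14c, Snord14d and Snord14e and reached 0.0813 for Snord14a, so these near copies were split with little stated uncertainty. Per count of Snord14d, Snord14e had 0.196 and 0.447 counts with the LARP7 antibody and 0.0606 and 0.135 with IgG. Both LARP7 values lay above both IgG values in these libraries. Whether copies from 1 host transcript differ in their ratio between the RIPs was not tested.

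The most abundant members were mostly guides of rRNA methylation. By CPM per 100 nt of model, Snord83b stood first with the LARP7 antibody (18979 ± 9351, SD, n = 2), ahead of Snord12 (14320 ± 305), Snord32a (10946 ± 1763) and Snord43 (6178 ± 418). Snord83b and Snord12 differed by less than the SD of Snord83b, while the steps from Snord12 to Snord32a and on to Snord43 were larger than the SDs of both neighbours. These steps depend on the deposited lengths. RefSeq gives Snord43 48 nt in place of 108 nt, Snord12 66 nt in place of 90 nt and Snord32a 81 nt in place of 83 nt. The order by RefSeq length was not computed. With IgG Snord32a stood first (6322 ± 5867), then Snord83b, Snord43, Snord21 and Snord12, and the SD of Snord32a spanned all of them. The 6 members with the most counts in a library held 86.9% and 80.9% of the family's counts with the LARP7 antibody and 78.4% and 77.8% with IgG.

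Snord12, a guide of large-subunit rRNA hosted by the non-coding gene Zfas1, had 50347 and 55312 counts against 10155 and 15962. In CPM that was 13082 and 12694 against 793 and 2525, with close LARP7 values far above both IgG values. Its log2 fold change was 2.96 with TMM (SE 0.86, edgeR adjusted p = 0.0313) and 1.63 with library totals (adjusted p = 0.0428). Leaving out LARP7 replicate 1 (2.92, adjusted p = 0.152) ended the call, as did leaving out LARP7 replicate 2 (2.98, adjusted p = 0.201). Snord83b, hosted by Rpl3, had 24056 and 11624 CPM against 2803 and 3948 CPM and missed the threshold narrowly (2.40, SE 0.81, edgeR adjusted p = 0.052). Snord83b was called without IgG replicate 2 (2.73, adjusted p = 0.023), by DESeq2 (2.36) and with no filter (2.33, adjusted p = 0.0385). Snord43, a small-subunit rRNA guide in the same host, had 6353 and 6992 CPM against 928 and 3309 CPM (1.66, edgeR adjusted p = 0.154; without IgG replicate 2, 2.90 and 0.0155). DESeq2 called Snord43 (1.61, adjusted p = 0.0273). Snord71, which guides methylation of the small rRNA of the large subunit, had 2030 and 1783 CPM against 291 and 618 CPM (2.07, edgeR adjusted p = 0.0544; without IgG replicate 2, 2.77 and 0.0174). Snord71 was also called by DESeq2 (2.03) and with no filter (1.99, adjusted p = 0.0362).

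Other abundant members were not called with TMM, and their groups overlapped or lay close. Snord32a had 8051 and 10120 CPM against 1804 and 8690 CPM, with IgG replicate 2 inside the LARP7 range (log2 fold change 0.79, edgeR adjusted p = 0.517; without IgG replicate 2, 2.38 and 0.0426). By library totals its value was -0.49. Snord111 had 1265 and 2355 CPM against 217 and 1193 CPM (1.36, edgeR adjusted p = 0.259; without IgG replicate 2, 3.11 and 0.00865). Snord21, a large-subunit rRNA guide in Rpl5, had 1574 and 1628 CPM against 1820 and 1705 CPM, and was the member whose LARP7 values both lay below the IgG values with TMM. The gap was small (log2 fold change -0.14, SE 0.66, edgeR adjusted p = 0.893). By library totals Snord21 was called lower (-1.56, adjusted p = 0.0445). Snord96a, hosted by Rack1, had 754 and 1374 CPM against 622 and 2343 CPM (-0.48, edgeR adjusted p = 0.671), and was also called lower with library totals (-1.75, adjusted p = 0.0223). Snord15b, in Rps3, had 363 and 731 CPM against 259 and 947 CPM (-0.14, edgeR adjusted p = 0.905).

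**Figure D4:**
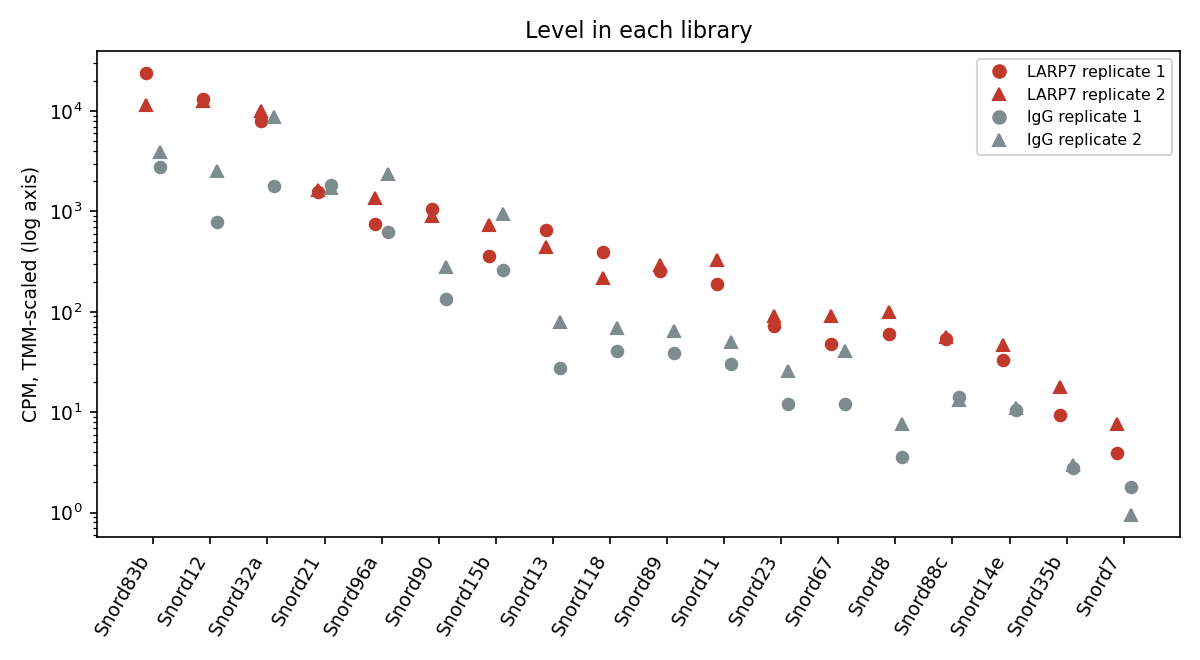
TMM-scaled CPM (vertical log axis) in each library for the 12 members called higher and 6 others; red for LARP7, grey for IgG, circles for replicate 1 and triangles for replicate 2, to be read within a gene since values are not per length. The red points of Snord8 (60.8 and 101 CPM) lie far above its grey points (3.59 and 7.59 CPM), while those of Snord21, Snord96a and Snord15b lie among the grey ones or just below.

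Snord11, a guide of small-subunit rRNA, lies in Nop58, the gene of a box C/D core protein. It had 191 and 329 CPM against 30.5 and 49.8 CPM, with the LARP7 values well above (log2 fold change 2.70, SE 0.60, edgeR adjusted p = 0.0141). By library totals it was called too (1.36, adjusted p = 0.0373). Snord70, in another intron of Nop58, had 126 and 134 CPM against 62.7 and 99.5 CPM and was not called (0.68, edgeR adjusted p = 0.348). The counts of Snord11 per count of Snord70 were 1.52 and 2.46 with the LARP7 antibody and 0.487 and 0.501 with IgG, 4.03 times as many by the means. Both LARP7 values lay above both IgG values. For Snord83b per Snord43 (3.79 and 1.66 against 3.02 and 1.19) and for Snord35a per Snord32a (0.00749 and 0.0076 against 0.00831 and 0.00679), which share the hosts Rpl3 and Rpl13a, the groups overlapped. In all, 10 pairs of members within a host were compared in this way, by ratios of counts that need no scaling. In 5 of them both LARP7 values lay above both IgG values (Snord11 per Snord70, Snord88c per Snord88a and the pairs among the Hspa8 copies), and in the other 5 the groups overlapped. The pairs share members and were chosen with values known, and the ratios among the Hspa8 copies are tied to one another. Which member of a pair was counted over the other was set by hand, so above could as well read below. No share over all genes was computed for such ratios, and none was tested. The remaining called members, Snord23, Snord35b, Snord88c, Snord89 and Snord90, had log2 fold changes from 1.99 to 2.41 with TMM, and none of them was called with library totals. Of these, Snord88c was called with each library left out in turn, and the other 4 lost their call without at least 1 library. Snord87 (0.45) and Snord17 (0.44), a guide of large-subunit rRNA with the longest model, were not called with TMM, and with library totals their signs turned (-0.80 and -0.98).

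Host genes were taken from RefSeq intervals that enclose a member, without regard to strand. A member could thus have more than 1 host, as Snord91a did with Srr and Tsr1, and each was counted. A host enclosed 34 of the 37 members matched, and for 13 members it was a gene named Rpl or Rps, for a ribosomal protein. Of the 12 tested members in such genes 1 was called higher with TMM (median log2 fold change 0.99), of the 21 in other hosts 8 (1.36), and of the 3 without an enclosing gene, Snord13, Snord89 and Snord118, all 3 (2.49). With library totals the medians were -0.41, 0.11 and 1.08, so that of the members in ribosomal protein genes changed sign. Of all genes 14.5% were called higher with TMM, beside 8.33% of the members in ribosomal protein genes, a share that rests on 1 member. That order held with library totals and on TPM (0% and 3.95% of all genes in each). It turned with DESeq2 (25% and 13.7% of all genes), with no filter (16.7% and 7.56%) and without IgG replicate 2. The medians of members in ribosomal protein genes and in other hosts turned order only without IgG replicate 2 (2.27 and 1.99). The difference between these classes was not tested. Of 26 tested hosts 8 (30.8%) were called higher and 0 lower with TMM, beside 14.5% and 9.69% of all genes, with a median log2 fold change of 0.89. With library totals 1 host was higher and 5 were lower, beside 3.95% and 47.1% of all genes, and the median was -0.44. Of 7 called members with a tested host, 2 lay in a host that was itself called. Chd8, which holds Snord8, had a log2 fold change of 0.03, and Ckap5, which holds Snord67, of -0.03. By library totals both hosts were called lower (-1.43 and -1.50, edgeR adjusted p = 0.0201 and 0.011). Across 33 pairs of member and host, which share libraries and in part hosts, the log2 fold changes had a Pearson r of -0.175 and a Spearman rho of -0.215.

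Snord68 was the member left untested, with 0 counts in all 4 libraries, which allows up to 3 counts in each by counting error alone. Its host Rpl13 had 243721 and 353576 counts with the LARP7 antibody and 92840 and 92033 with IgG. In LARP7 replicate 1 that nearly equals the 244212 counts of all 38 members together. The other 8 ribosomal protein hosts had between 7 and 7230 counts in that library. Rpl13 was called higher with TMM (log2 fold change 2.73, SE 0.87, edgeR adjusted p = 0.0433), but not with library totals (1.39, adjusted p = 0.106). Leaving out either LARP7 library ended the call (2.88, adjusted p = 0.233 without replicate 1, and 2.54, adjusted p = 0.388 without replicate 2). Whether reads of Snord68 were counted into Rpl13 was not tested. The Snord80 model of 81 nt shared a symbol with a model of 77 nt that lies outside the length bound. The longer one had 46 and 53 counts against 0 and 23, and the shorter one 8111 and 21674 against 13156 and 29801. The posterior SD of the longer one reached 0.205 of its count, so its log2 fold change of 2.90 (SE 1.47, edgeR adjusted p = 0.244) rests on an uncertain split.

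Values near the length bound were as follows, with no test. Just inside it, Snord72 (81 nt) had a log2 fold change of 1.5, Snord96a (81 nt) of -0.48 and the longer Snord80 model of 2.90. Just outside, Snord69 (80 nt) had 1.95, Snord45c (80 nt) 3.17 and Snord55 (79 nt) 1.80. The shorter Snord80 model (77 nt) had 0.30. Across the 37 tested members, which share libraries, the log2 fold change and model length had a Pearson r of -0.0947 and a Spearman rho of 0.111. The bound also rests on the annotation. RefSeq gave a length for 37 members, above 80 nt for 23 of them and up to 80 nt for 14, and it was shorter than the deposited model by over 10 nt for 17. Snord43 had a model of 108 nt and a RefSeq length of 48 nt, Snord90 111 and 68 nt, and Snord12 90 and 66 nt. Of the 23 members above 80 nt in RefSeq 9 were called higher with TMM, and of the 13 tested members up to 80 nt 3 were, beside 14.5% of all genes. The order of these shares, 39.1% and 23.1%, turned with DESeq2 (34.8% and 53.8%, beside 13.7% of all genes). It also turned with no filter (34.8% and 38.5%, beside 7.56%), with library totals (8.70% and 15.4%, beside 3.95%) and without IgG replicate 2. The median log2 fold changes were 1.25 and 1.5.

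**Figure D5:**
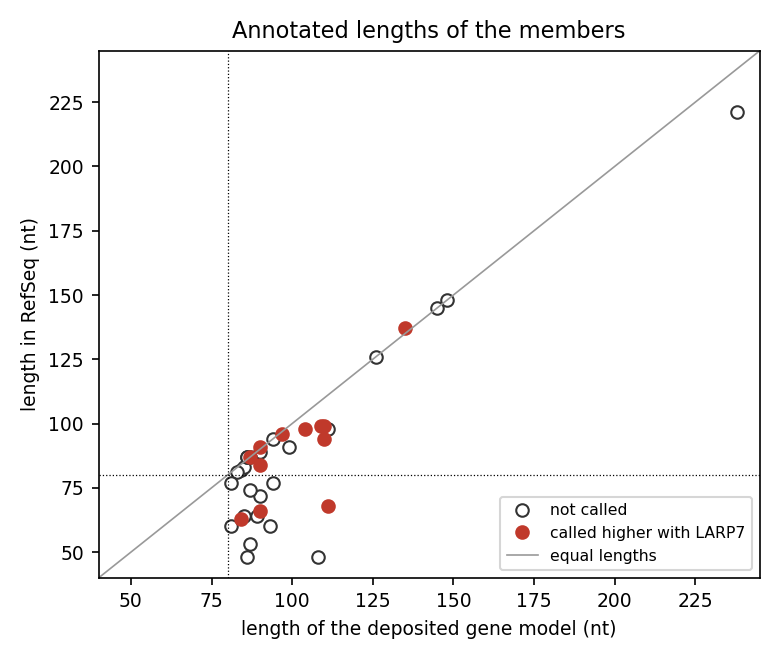
Length of the deposited gene model (horizontal axis, nt) against the length in RefSeq (vertical axis, nt) for 37 members; filled red points were called higher with LARP7 (TMM), open points were not, the grey line marks equal lengths and the dotted lines 80 nt. The 14 points under the horizontal dotted line, Snord43, Snord90 and Snord12 among them, are members only by their deposited model.

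The list of protein genes held 13 that build or form box C/D particles, with Larp7 itself and Mepce, whose protein joins LARP7 on 7SK RNA. Of these 15, 13 were tested, and with TMM 1 was higher and 2 were lower, against 14.5% and 9.69% of all genes. Without Larp7 and Mepce, 1 of 11 was higher and 1 lower. The mRNAs of the core proteins were not called (Fbl -0.04, Nop56 1.42, Nop58 0.92 and Snu13 -0.16). Znhit3, of an assembly factor, was higher (log2 fold change 1.92, edgeR adjusted p = 0.0233), with 40 and 89 counts against 64 and 19. Ruvbl2, of a chaperone ATPase in assembly, was lower (-1.38, edgeR adjusted p = 0.041), as was Larp7 itself (-1.46, adjusted p = 0.0291). None of these 3 calls held in all 4 fits with a library left out, and with library totals 0 of the 13 were higher and 7 lower (53.8%), where 47.1% of all genes were lower. Without Larp7 and Mepce these were 0 and 5 of 11 (45.5%).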

How the data were processed

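Size-selected small RNA libraries were made from 2 LARP7 and 2 IgG RIPs of mouse testis. The tools named (per the submitters' processing notes) are cutadapt, Bowtie2 and RSEM, with build mm10. Neither settings nor versions are stated there (not given in the sources used here). The deposited files give, per gene model, an expected count (an estimated count in which RSEM splits multiply mapping reads) and the authors' TPM, which divides by effective length. For the members effective length was 27.0% to 74.5% of model length and differed between libraries, so TPM of short models depends on read length. Other columns in the deposited files are the posterior SD of the count and the model length. Expected counts were rounded; 13.4% to 18.9% of values in a library were not whole, to within 0.005.

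The test was edgeR 4.0.16 in R 4.3.3 over all gene models: filterByExpr, TMM, robust quasi-likelihood F tests, two-sided, Benjamini-Hochberg adjustment over 12234 models, threshold 0.05. SE is the unshrunk log2 fold change over the square root of F. CPM uses TMM-scaled library sizes, with SDs over 2 libraries. The script was tested on simulated data. Alternatives were library totals, no filter, the replicate number as a block, each library left out, other length bounds, DESeq2 1.42.0 and limma 3.58.1 on log2(TPM + 1). Members and gene lists were chosen with earlier results of these data known. Named members were the U6 guides, those acting on the rRNA precursor, the 8 with the highest mean CPM, the 6 with the largest and the 6 with the smallest log2 fold change, any called lower and those at the length bound; Snord11's host partner Snord70, Snord33, other called members and host genes were added after their values were seen. Positions, hosts and lengths come from RefSeq for GRCm38.p6, where 35723 of 50600 symbols and 37 of 38 members matched. U3 models, named Rnu3, fall outside the rule and are not analysed here. Counting limits cover counting error only.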

Additional observations from a re-analysis of the deposited data

How the results depend on the processing

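The calls of Snord8, Snord11 and Snord13 held in all 9 fits on counts, with TMM, library totals, DESeq2, no filter, the replicate block and each library left out. With limma on TPM, no members (0) were higher and 4 lower, and their median was -1.0, where that of the 2204 genes tested was -1.21. Library totals gave 483 genes higher and 5759 lower, and 4 and 3 members, with a median of 0.13. Limma on TPM called 87 genes higher, and DESeq2 653 lower. The share of counts differed by 0.555 percentage points between the groups (LARP7 minus IgG), by -2.97 as TPM, and by -0.496 to 1.61 with a library left out. With model lengths above 90 nt, 7 of 17 tested members were higher (41.2%). With RefSeq lengths above 80 nt, an alternative chosen after seeing the data, 9 of 23 were (39.1%), with a median of 1.25. These shares stand beside 32.4% of the 37 tested members and 14.5% of all genes.

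Leaving out each library in turn gave 660 to 2138 genes higher, 197 to 922 lower, 7 to 21 members higher and 0 lower, and a members' median of 1.01 to 2.24. The same-numbered libraries' deviations from their group means correlated at r = 0.23 across genes, but they share only a number. With the replicate block 21 members were higher (17.1% of all genes) and 0 lower (11.5%), Snord7 was not called (1.97), and Snord67 (1.56), Snord15a, Snord22, Snord33, Snord43, Snord71, Snord72, Snord83b, Snord88a and Snord111 were, with adjusted p from 0.0141 to 0.0496. Snord7 also lost its call with DESeq2 (2.02), no filter (1.92) and library totals (0.59); its range with a library left out was 1.47 to 2.56, that of Snord67 0.77 to 2.56 and that of Snord8 3.40 to 4.53. On TPM Snord8 had 1.24, not called, Snord7 -0.39 and Snord67 -1.0. With the block 50% of the tested members in ribosomal protein genes were higher, above the 17.1% of all genes, so that order turned. The order by RefSeq length turned too, with 52.2% higher above 80 nt and 69.2% up to 80 nt. Of the mRNAs of box C/D proteins, Larp7 and Mepce, 0 were higher and 7 lower with library totals, 0 higher and 3 lower of 4 tested on TPM and 1 lower with DESeq2, and 0 to 1 in either direction with a library left out.

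Signs turned with library totals for Snord14a (-0.49), Snord14c (-1.0), Snord14d (-1.42), Snord17 (-0.98), Snord22 (-0.11), Snord32a (-0.49) and Snord87 (-0.80). On TPM they turned for Snord14a (-1.46), Snord14c (-2.04), Snord14d (-2.39), Snord14e (-0.67), Snord17 (-2.14), Snord22 (-1.32), Snord32a (-1.35), Snord43 (-0.68), Snord71 (-0.39), Snord72 (-0.67), Snord83b (-0.25), Snord87 (-1.85), Snord111 (-0.80) and Snord118 (-0.14). With the block Snord15b had 0.057. With a library left out the ranges that crossed 0 were -0.67 to 1.89 for Snord14a, -0.30 to 0.75 for Snord14d, -0.80 to 1.13 for Snord15b, -0.32 to 1.99 for Snord87 and -1.15 to 0.82 for Snord96a. The causes were not tested. With 2 libraries a group, precision is limited by their spread: in the IgG RIP, replicate 2 lay above replicate 1 for 28 of 36 members, by a median of 2.09-fold. In the LARP7 RIP it did so for 27 of 37 members, by a median of 1.26-fold. Over all genes the median log2 ratio of replicate 2 to replicate 1 was 0.007 with IgG and 0.01 with the LARP7 antibody.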
